A study of Mus musculus with 8 samples.

Results

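A set of 9 hepatocyte transcription factor genes was followed in 8 mouse liver transcriptomes. It holds Hnf4a, Foxa1, Foxa2, Foxa3, Onecut1, Prox1 and Cebpa, 7 factors that build and hold hepatocyte identity, and Cebpb and Cebpd, 2 factors of the acute-phase response. The members were the rows of the expression table that carry these gene symbols, and all 9 of 9 were found among 55416 genes. Each was above the filter on low values and was therefore among the 13708 genes tested. The study asks how loss of glutamine synthetase (Glul) in myeloid cells changes acute liver injury. Livers came from GlulΔlyz2 mice (here KO), in which the name denotes removal of Glul by a Cre recombinase driven from the Lyz2 locus, which is active in monocytes, macrophages and neutrophils, or from Glulflox/flox mice (here floxed), which carry the loxP-flanked gene and no stated Cre. Mice of each genotype received either lipopolysaccharide (LPS, 1 mg/kg) with D-galactosamine (D-GalN, 200 mg/kg) by intraperitoneal injection, or H2O by the peritoneal route. Each of the 4 groups (KO LPS/D-GalN, floxed LPS/D-GalN, KO H2O, floxed H2O) had 2 libraries. The labels give no age, sex or time of collection, and whether a group's 2 libraries came from separate mice is not stated either, so the p-values measure the spread between these libraries. D-GalN is an amino sugar that is taken up by hepatocytes, where it ties up uridine nucleotides and sensitises the liver to LPS.

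HNF4A is a nuclear receptor that binds the promoters of a large share of liver genes, including those for apolipoproteins and bile acid enzymes. The forkhead proteins FOXA1, FOXA2 and FOXA3 open liver enhancers, ONECUT1 (also HNF6) and PROX1 are homeodomain factors that act from the liver bud onward, and C/EBP alpha holds the quiescent, metabolic state of the adult hepatocyte. C/EBP beta and C/EBP delta bind the same sites as C/EBP alpha, are induced by interleukin-1, interleukin-6 and tumour necrosis factor signalling, and drive acute-phase genes such as the serum amyloids. Both are also made in macrophages and neutrophils.

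The libraries held between 18381670 and 24799143 assigned fragments, which were recovered from the FPKM values (fragments per kilobase of exon, scaled to the library total) and gene lengths, and 43 fragments was the fewest for any of the 9 genes in any library. Of 16 hepatocyte marker genes 15 were matched by symbol, none was under 1 FPKM in any library, and albumin (Alb) lay between 18281 and 27308 FPKM, so the liver label held in every library. The injured KO replicate 1 stood apart: haemoglobin genes took 5.22% of its summed FPKM, against 0.774% in the injured KO replicate 2, at most 0.0146% in injured floxed libraries and at most 0.0671% in H2O libraries. Results that rest on the injured KO libraries are therefore given with each of them left out where a call changed. Genes of the mitochondrial genome took 17.0% and 21.2% of summed FPKM in injured KO livers and 14.1% and 13.6% in injured floxed livers. In H2O livers they took 38.0% and 23.5% in KO and 27.1% and 22.6% in floxed livers. The main fit did not rescale FPKM for this, and scaling without mitochondrial and haemoglobin genes was an alternative. The targeted gene, which perivenous hepatocytes also express strongly, was at 74.6 and 90.1 FPKM in injured KO livers, 358 and 237 FPKM in injured floxed livers, 89.8 and 134 FPKM in KO H2O livers, and 107 and 106 FPKM in floxed H2O livers. Whole-liver Glul did not differ beyond the spread between KO and floxed livers given H2O (log2 difference 0.05 ± 0.27 SE, limma adjusted p = 1.0). Between injured livers Glul was lower in KO than in floxed livers (-1.82 ± 0.27, adjusted p = 0.00135). Under injury Glul rose in floxed livers (1.44 ± 0.27, adjusted p = 0.00304) and did not pass in KO livers (-0.42 ± 0.27, 0.214). In whole liver Glul is no check of a deletion in myeloid cells. Lyz2, the locus that drives the Cre, had 5.27 and 9.92 FPKM in KO H2O livers and 33.7 and 72.4 FPKM in floxed H2O livers, groups that did not overlap, although the difference did not pass over all genes (log2 difference -2.61 ± 0.41 SE, adjusted p = 0.160).

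Promoter windows from RefSeq (mouse build GRCm38.p6, 250 bases before to 50 bases after each annotated start) were available for 8 of the 9 members, in 12 windows, since some genes have several starts. Shown is 1 window for each of 4 genes that carry the contrast described here: the rising Cebpb, the falling Cebpa and Onecut1, and Hnf4a with its antisense neighbour. Capitals mark the letters of a motif found by script on either strand, and all sequences read 5′ to 3′ on the plus strand, the sense strand of each gene. Distances run from the start base to the leftmost base of a motif.
Cebpb, chr2:167688665-167688964: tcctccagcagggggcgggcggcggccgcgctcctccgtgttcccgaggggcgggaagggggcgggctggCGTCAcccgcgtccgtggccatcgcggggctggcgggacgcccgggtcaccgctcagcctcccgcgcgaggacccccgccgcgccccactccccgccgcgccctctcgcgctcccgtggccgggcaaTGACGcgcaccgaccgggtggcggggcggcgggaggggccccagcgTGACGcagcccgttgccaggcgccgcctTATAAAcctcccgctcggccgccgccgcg
Cebpa, chr7:35119043-35119342: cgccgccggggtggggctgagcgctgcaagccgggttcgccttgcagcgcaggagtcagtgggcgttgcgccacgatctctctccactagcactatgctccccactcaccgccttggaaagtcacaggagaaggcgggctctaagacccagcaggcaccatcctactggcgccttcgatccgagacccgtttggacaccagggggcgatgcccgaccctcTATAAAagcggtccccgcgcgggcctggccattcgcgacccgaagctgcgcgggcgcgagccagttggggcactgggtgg
Hnf4a, first start, chr2:163506607-163506906: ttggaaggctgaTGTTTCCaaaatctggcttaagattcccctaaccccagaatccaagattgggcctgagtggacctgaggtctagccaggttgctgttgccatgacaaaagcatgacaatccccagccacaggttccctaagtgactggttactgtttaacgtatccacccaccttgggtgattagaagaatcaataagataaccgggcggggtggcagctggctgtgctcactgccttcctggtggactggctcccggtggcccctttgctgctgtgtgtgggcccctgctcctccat
Onecut1, chr9:74861671-74861970: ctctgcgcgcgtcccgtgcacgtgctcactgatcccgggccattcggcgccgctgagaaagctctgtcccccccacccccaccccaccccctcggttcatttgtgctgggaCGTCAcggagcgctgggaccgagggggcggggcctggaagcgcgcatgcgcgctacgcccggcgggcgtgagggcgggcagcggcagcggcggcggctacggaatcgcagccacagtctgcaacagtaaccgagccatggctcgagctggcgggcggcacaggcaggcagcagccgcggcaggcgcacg
The Cebpb window holds the cyclic AMP response element half-site TGACG 3 times, at 180, 53 and 7 bases before the start, and the TATA letters TATAAA 21 bases after it. The Cebpa window holds TATAAA 30 bases before the start. The first Hnf4a window holds 1 forkhead motif (TGTTTNC) 238 bases before the start. Hnf4a also has a second annotated start, whose window is not shown, and which start these livers used was not examined. The Onecut1 window holds 1 TGACG, on the minus strand, 139 bases before the start. Among all 32851 RefSeq windows of this length, 20.8% hold TGACG, 13.6% TATAAA and 20.5% the forkhead motif. The C/EBP motif TTGCNNAA (10.8% of all windows), the STAT motif TTCNNNGAA (8.30%) and the HNF4 motif CAAAGTCCA (0.475%) were also searched on both strands and their letters are in none of the 12 windows. The NF-kB motif, held by 4.51% of all windows, was found in the Foxa3 window, 49 bases before the start. These matches describe letters and are not evidence of binding.

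In livers given H2O, FPKM, which is a level per length of exon, placed the 9 genes in a similar order in all 4 libraries. Cebpa was highest in each of these 4 libraries, at 107 and 125 FPKM in KO livers and 123 and 125 FPKM in floxed livers. Hnf4a came next, at 90.1 and 88.6 FPKM in KO livers and 90.7 and 99.6 FPKM in floxed livers, and its range did not reach that of Cebpa. Foxa3 followed, at 16.9 and 28.0 FPKM in KO livers and 24.7 and 28.7 FPKM in floxed livers. Its lowest value lay beside the highest of Foxa2, which had 16.4 and 16.8 FPKM in KO livers and 13.9 and 16.0 FPKM in floxed livers. Prox1, at 10.9 to 12.1 FPKM over the 4 libraries, lay above Foxa1, at 8.13 to 10.4 FPKM, and Onecut1, at 7.37 to 12.0 FPKM, overlapped both. Cebpb was lower, at 6.36 and 4.41 FPKM in KO livers and 5.50 and 4.65 FPKM in floxed livers, and Cebpd was lowest of the 9 in every H2O library, at 0.770 FPKM or less.

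**Figure D1:**
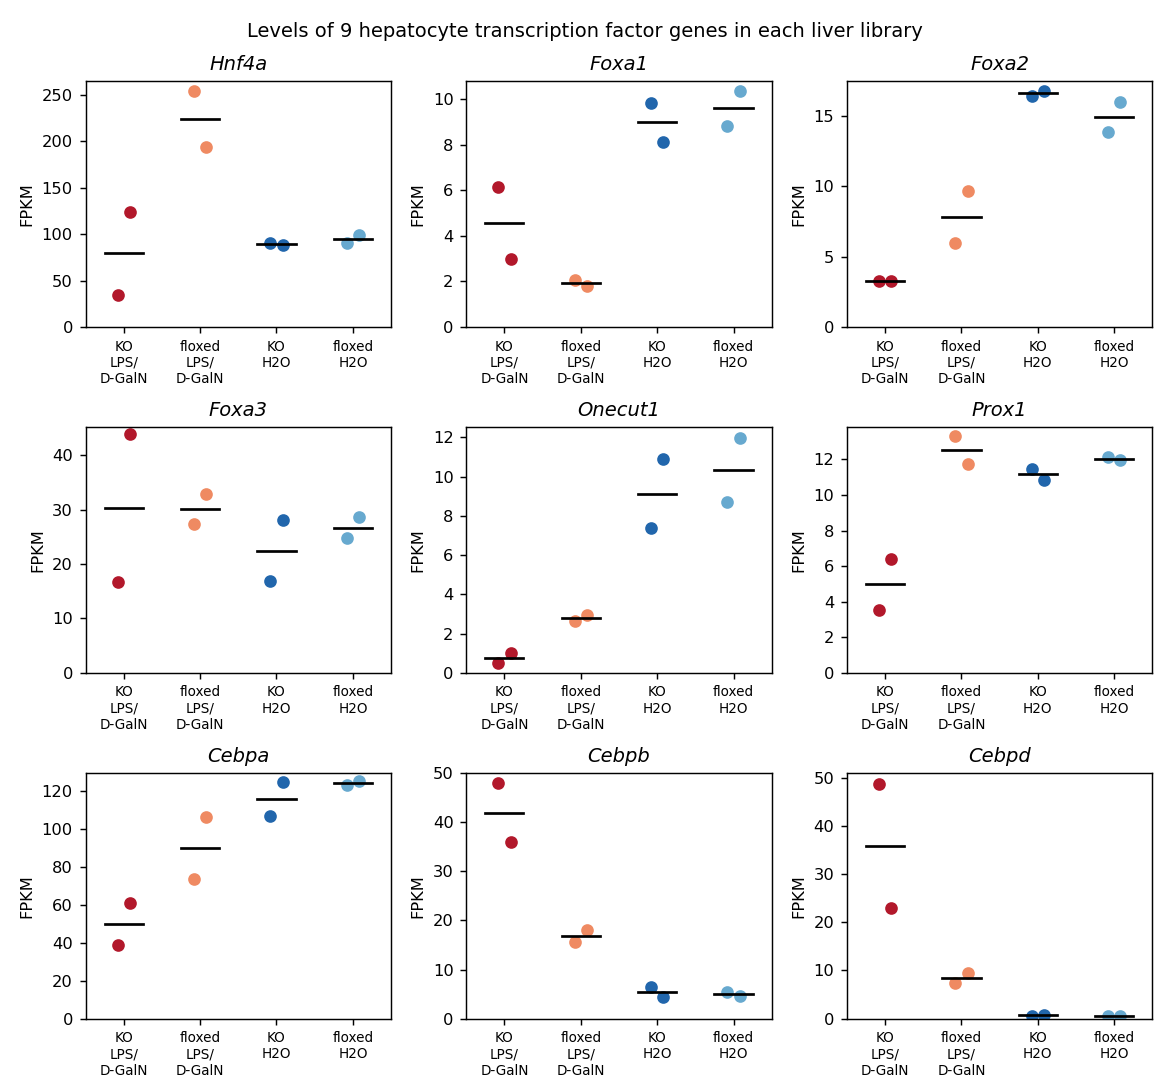
Each panel plots 1 gene, with FPKM on the vertical axis from 0 and the 4 groups along the horizontal axis; points are the 2 libraries of a group and bars their mean. Onecut1 and Foxa2 are lowest in injured KO livers, Hnf4a is highest in injured floxed livers, and Cebpb and Cebpd are highest in injured KO livers.

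The first comparison asked how the genes responded to LPS/D-GalN within each genotype. In KO livers 7 of the 9 genes passed the test (limma, adjusted p under 0.05), against 63.0% of all genes tested: 5 identity factors fell and both acute-phase factors rose. In floxed livers 5 of the 9 passed, against 57.3% of all genes: 3 identity factors fell and both acute-phase factors rose. By direction, 40.7% of all genes fell and 22.3% rose in KO livers, and 38.8% fell and 18.5% rose in floxed livers. With only 9 genes, the shares called are read neither as apart from the background nor as different between genotypes. The 2 classes of factor differed in the direction of their calls. The median log2 change of the 7 identity factors was -1.07 in KO livers and -0.49 in floxed livers, that of the 2 acute-phase factors was 3.57 and 2.05, and that of all genes was -0.28 in each. In these bulk samples fewer hepatocytes and less RNA per hepatocyte cannot be told apart.

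Onecut1, whose protein is needed for normal bile duct development and acts on hepatocyte metabolic genes, fell most among the identity factors in KO livers. It had 0.480 and 1.02 FPKM in injured KO livers, against 7.37 and 10.9 FPKM in KO livers given H2O. It had 2.64 and 2.97 FPKM in injured floxed livers, against 8.70 and 12.0 FPKM in floxed livers given H2O. The groups did not overlap in either genotype, and the log2 change was -2.53 ± 0.24 in KO livers (SE, adjusted p = 8.97e-05) and -1.56 ± 0.24 in floxed livers (adjusted p = 0.00106). On the plain FPKM scale the injured KO mean was 0.0820 of the KO H2O mean, and the injured floxed mean was 0.272 of the floxed H2O mean.

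The 3 FOXA genes had different changes: Foxa1 and Foxa2 fell in both genotypes and Foxa3 passed in neither. Foxa2, which in adult liver acts on fasting metabolism and bile acid handling, had 3.28 and 3.31 FPKM in injured KO livers against 16.4 and 16.8 FPKM in KO livers given H2O. In floxed livers it had 5.95 and 9.68 FPKM after injury against 13.9 and 16.0 FPKM after H2O. It fell in both genotypes, by 2.04 on the log2 scale in KO livers (SE 0.21, adjusted p = 0.000136) and by 0.88 in floxed livers (SE 0.21, adjusted p = 0.00816). Foxa1, the close paralogue that shares liver specification with Foxa2, had 6.16 and 3.01 FPKM in injured KO livers against 9.85 and 8.13 FPKM in KO livers given H2O. In floxed livers it had 2.05 and 1.78 FPKM after injury against 8.82 and 10.4 FPKM after H2O. It also fell in both genotypes, with log2 changes of -0.89 ± 0.26 in KO livers (adjusted p = 0.0179) and -1.86 ± 0.26 in floxed livers (adjusted p = 0.000762), so its larger estimate was in floxed livers and that of Foxa2 in KO livers. Foxa3, the FOXA gene with the highest level in every library, had 16.6 and 43.9 FPKM in injured KO livers against 16.9 and 28.0 FPKM in KO livers given H2O. In floxed livers it had 27.4 and 32.9 FPKM after injury against 24.7 and 28.7 FPKM after H2O. Its groups overlapped in both genotypes and neither log2 change passed the test (0.30 ± 0.42, adjusted p = 0.550 in KO livers, and 0.17 ± 0.42, adjusted p = 0.754 in floxed livers).

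Hnf4a had the largest SE of the 9 genes, and its 2 injured KO libraries lay far apart. It was at 34.3 and 124 FPKM in injured KO livers, against 90.1 and 88.6 FPKM in KO livers given H2O, so the injured KO libraries lay on either side of the H2O libraries. In injured floxed livers it was at 254 and 194 FPKM, above both floxed H2O libraries at 90.7 and 99.6 FPKM. The log2 change was -0.44 ± 0.50 in KO livers (adjusted p = 0.464) and 1.21 ± 0.50 in floxed livers (adjusted p = 0.0708), and neither passed. Hnf4aos, a non-coding gene antisense to Hnf4a, had 1.61 and 2.36 FPKM in injured KO livers and 1.24 and 0.756 FPKM in injured floxed livers, against 15.6 and 7.70 FPKM in KO H2O livers and 6.85 and 7.11 FPKM in floxed H2O livers. It fell in both genotypes, with log2 changes of -2.02 ± 0.30 in KO livers (adjusted p = 0.000709) and -2.01 ± 0.30 in floxed livers (adjusted p = 0.000943). Whether the counting used strand is not stated, so reads of Hnf4a and Hnf4aos cannot be fully told apart. The antisense gene was at most 0.173 of the Hnf4a level in any library.

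Prox1, a factor for hepatocyte migration out of the liver bud that also defines lymphatic endothelium, had 3.56 and 6.38 FPKM in injured KO livers against 11.4 and 10.9 FPKM in KO livers given H2O. It fell there by 1.07 on the log2 scale (SE 0.22, adjusted p = 0.00400). In floxed livers it had 13.3 and 11.7 FPKM after injury against 12.1 and 12.0 FPKM after H2O, and these groups overlapped (log2 change 0.05 ± 0.22, adjusted p = 0.860). Cebpa had 39.0 and 60.9 FPKM in injured KO livers against 107 and 125 FPKM in KO livers given H2O, a log2 change of -1.23 ± 0.27 (adjusted p = 0.00484). In floxed livers it had 73.6 and 106 FPKM after injury against 123 and 125 FPKM after H2O. Those groups did not overlap, and the log2 change of -0.49 ± 0.27 did not pass (adjusted p = 0.154).

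The 2 acute-phase factors rose in both genotypes. Cebpb had 47.9 and 35.9 FPKM in injured KO livers against 6.36 and 4.41 FPKM in KO livers given H2O, and 15.6 and 18.1 FPKM in injured floxed livers against 5.50 and 4.65 FPKM in floxed livers given H2O. Its log2 change was 2.75 ± 0.21 in KO livers (adjusted p = 4.11e-05) and 1.55 ± 0.21 in floxed livers (adjusted p = 0.000700). Cebpd had 48.6 and 23.0 FPKM in injured KO livers against 0.538 and 0.770 FPKM in KO livers given H2O. In floxed livers it had 7.35 and 9.44 FPKM after injury against 0.540 and 0.638 FPKM after H2O. Its log2 change was 4.39 ± 0.31 in KO livers (adjusted p = 2.67e-05) and 2.56 ± 0.31 in floxed livers (adjusted p = 0.000393), and no injured library overlapped an H2O library. Mean Cebpd FPKM was 54.8-fold higher in KO and 14.3-fold higher in floxed livers after injury, and mean Cebpb FPKM was 7.78-fold and 3.32-fold higher. Cebpd was under 1 FPKM in every H2O library, so it met the filter on low values only through the injured livers. Its fold values rest on 43 to 56 fragments in each H2O library and, in KO livers, on 2 injured libraries that lay far apart. Since 1 FPKM is added before taking logarithms, the log2 change understates the change of a gene as low as Cebpd in H2O livers.

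**Figure D2:**
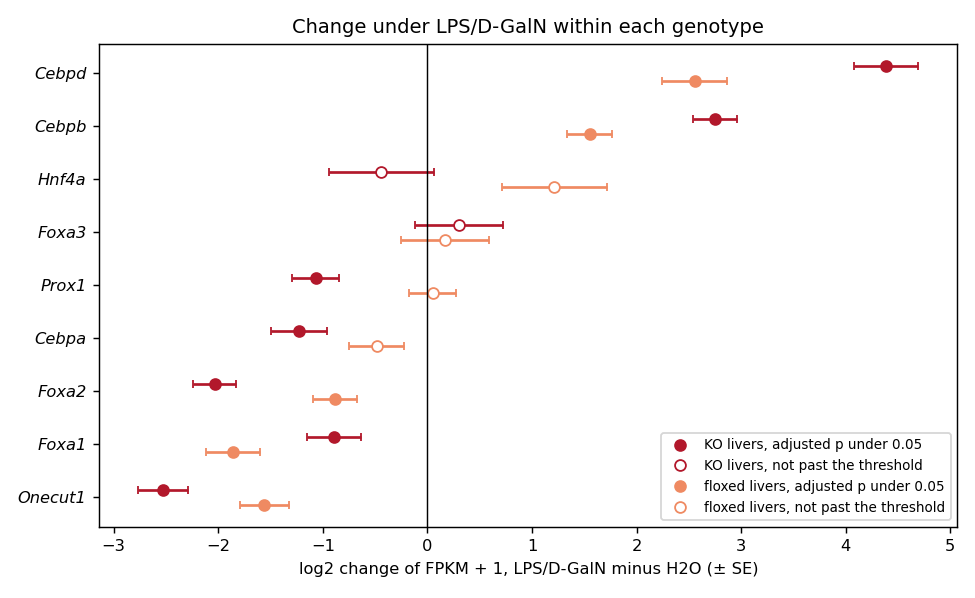
The horizontal axis is the log2 change of FPKM + 1 under LPS/D-GalN relative to H2O, with bars for the SE, and each row is 1 gene with KO livers above floxed livers; filled points passed the adjusted p of 0.05. Cebpd and Cebpb lie to the right of 0 in both genotypes, Onecut1, Foxa1 and Foxa2 to the left in both, and Hnf4a and Foxa3 have open points in both.

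Groups did not overlap for 7 of the 9 genes in KO livers and 7 of the 9 in floxed livers, against 79.9% and 83.0% of all genes. Averaged over both genotypes, 7 of the 9 genes passed the test, against 69.2% of all genes, with 5 identity factors lower (45.1% of all genes were) and 2 acute-phase factors higher (24.1%). The calls on the injured KO libraries depended on a single library for 3 genes: without the injured KO replicate 2, Foxa1 lost its call (adjusted p = 0.0677) and Hnf4a was lower, at -1.36 (adjusted p = 0.00386), and without the injured KO replicate 1, Foxa3 was higher, at 0.98 (adjusted p = 0.0388). Without the injured KO replicate 1 the average over both genotypes was also higher for Hnf4a, at 0.84 (adjusted p = 0.00318), and for Foxa3, at 0.57 (0.0453), so that all 9 genes passed, against averages of 0.39 (0.357) and 0.24 (0.501) with every library. Foxa1 in KO livers also lost its call without the KO H2O replicate 1 (adjusted p = 0.0949) and with no filter on low values (0.0623), Foxa2 in floxed livers lost its call without the floxed H2O replicate 2 (0.0516), and Hnf4a in floxed livers passed in 7 of 19 alternatives, among them those without the injured KO replicate 1 (0.00260), without the injured KO replicate 2 (0.00252) and with only the compared groups in the fit (0.00433).

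The next comparison set injured KO livers against injured floxed livers, the same libraries that enter the comparisons with H2O. Of the 9 genes 8 passed the test, against 52.5% of all genes, and 8 did not overlap between the groups, against 78.6% of all genes. Foxa1, Cebpb and Cebpd were higher in KO livers (25.3% of all genes were), and Hnf4a, Foxa2, Onecut1, Prox1 and Cebpa were lower (27.2% of all genes were). The median log2 difference was -1.003 for the identity factors and 1.57 for the acute-phase factors, and -0.04 for all genes. The FPKM values of the injured groups given above place both injured KO libraries on 1 side of both injured floxed libraries for each of these 8 genes. Hnf4a, at a mean of 79.2 ± 63.5 FPKM in injured KO livers and 224 ± 42.3 FPKM in injured floxed livers (SD, n = 2 each), had a log2(FPKM + 1) difference of -1.74 (SE 0.50, adjusted p = 0.0208). On the plain FPKM scale the injured KO mean was 0.354 of the injured floxed mean for Hnf4a and 0.267 for Onecut1. Prox1 differed by -1.22 ± 0.22 (adjusted p = 0.00304), Onecut1 by -1.14 ± 0.24 (adjusted p = 0.00521), Foxa2 by -1.003 ± 0.21 (adjusted p = 0.00531) and Cebpa by -0.85 ± 0.27 (adjusted p = 0.0295). Foxa1 was the 1 identity factor that was higher, by 0.88 ± 0.26 (adjusted p = 0.0234), and Foxa3 did not pass (-0.14 ± 0.42, adjusted p = 0.802). Cebpd was higher by 1.89 ± 0.31 (adjusted p = 0.00188) and Cebpb by 1.26 ± 0.21 (adjusted p = 0.00225). Without the injured KO replicate 1, Foxa1 (0.46, adjusted p = 0.0926) and Cebpa (-0.53, adjusted p = 0.158) lost their calls and Hnf4a moved to -0.83 (adjusted p = 0.0312), against -2.66 without the injured KO replicate 2. Without the injured floxed replicate 1 the calls of Hnf4a (adjusted p = 0.110) and Foxa1 (0.0751) were lost, without the injured floxed replicate 2 those of Hnf4a (0.0574), Foxa1 (0.108) and Cebpa (0.180), and with only these 2 groups in the fit those of Hnf4a (0.0815), Foxa1 (0.0769) and Cebpa (0.0790).

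Between KO and floxed livers given H2O none of the 9 genes passed limma's test, against 0.00730% of all genes (1 of 13708). All 9 had an adjusted p of 1.0, the smallest unadjusted p was 0.494, and no member was called by voom on recovered fragments. Log2 differences lay between -0.28 ± 0.42 for Foxa3 and 0.15 ± 0.21 for Foxa2. The groups did not overlap for Hnf4a, Foxa2 and Prox1, 3 of 9 genes against 34.7% of all genes, with Prox1 at 11.4 and 10.9 FPKM in KO livers and 12.1 and 12.0 FPKM in floxed livers. Across all genes 780 had an unadjusted p under 0.05 in limma and 14 were called by voom.

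Whether the response to injury itself differed between genotypes was tested with the interaction term. It passed for 4 of the 9 genes, against 36.0% of all genes. The change under injury was further down in KO livers for Foxa2 (interaction -1.15 ± 0.29 SE, adjusted p = 0.0202) and Prox1 (-1.12 ± 0.32, adjusted p = 0.0284), and further up in KO livers for Cebpd (1.83 ± 0.44, adjusted p = 0.0156) and Cebpb (1.20 ± 0.30, adjusted p = 0.0193). Among all genes the term was lower in 15.1% and higher in 20.9%. It did not pass for Onecut1 (-0.97, adjusted p = 0.0549), Foxa1 (0.96, 0.0755), Hnf4a (-1.66, 0.105), Cebpa (-0.74, 0.162) or Foxa3 (0.14, 0.879). For these 5 genes a difference between genotypes in the injury response was thus not shown in the main fit. Onecut1 lay closest to the threshold and passed in 8 of 18 alternatives, Foxa1 in 2, Hnf4a and Cebpa in 1 each, and Foxa3 in 0. With a pseudocount of 0.1 the Onecut1 term was -1.66 (limma adjusted p = 0.0316), and with voom on recovered fragments -1.84 (0.00882). The 4 calls were near the threshold: without the injured KO replicate 1 those of Foxa2 (adjusted p = 0.0564) and Cebpb (0.0562) were lost, and without the injured KO replicate 2 Hnf4a (-2.57, adjusted p = 0.00271), Foxa1 (1.38, 0.00834) and Onecut1 (-1.19, 0.0428) also passed. Leaving out 1 floxed or H2O library ended the Foxa2 call (KO H2O replicate 2, 0.0522, floxed H2O replicate 1, 0.0681), the Prox1 call (any 1 of the 6 floxed or H2O libraries, up to 0.0958), the Cebpb call (injured floxed replicate 1, 0.0718, KO H2O replicate 2, 0.0530, floxed H2O replicate 1, 0.0673) and the Cebpd call (injured floxed replicate 1, 0.0615, KO H2O replicate 1, 0.0502). The number of the 9 genes called thus moved with the library left out, as did the number called over all genes.

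The balance within each family shows the same values as shares. Cebpa made up 28.7% and 50.8% of the summed FPKM of Cebpa, Cebpb and Cebpd in injured KO livers and 76.3% and 79.4% in injured floxed livers, against 93.9% and 96.0% in KO H2O livers and 95.3% and 96.0% in floxed H2O livers. The sum of the 3 genes itself overlapped between groups, at 136 and 120 FPKM in injured KO livers, 96.5 and 134 FPKM in injured floxed livers, 114 and 130 FPKM in KO H2O livers, and 129 and 131 FPKM in floxed H2O livers. The ratio of Cebpb to Cebpa was 1.23 and 0.589 in injured KO livers and 0.212 and 0.170 in injured floxed livers, against at most 0.0595 in any H2O library. In the injured KO replicate 1 Cebpd and Cebpb were the 2 highest of all 9 genes, and Cebpa and Hnf4a came after them, while in the injured KO replicate 2 and both injured floxed libraries Hnf4a was highest, with 41.2%, 63.2% and 50.1% of the summed FPKM of the 9 genes. Within the FOXA family Foxa3 took 63.8% and 87.4% in injured KO livers and 77.4% and 74.2% in injured floxed livers, against 39.2% and 52.9% in KO H2O livers and 52.1% and 52.2% in floxed H2O livers. Foxa1 was 1.88 and 0.909 times the level of Foxa2 in injured KO livers and 0.345 and 0.184 times in injured floxed livers, against 0.483 to 0.648 times in H2O livers.

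**Figure D3:**
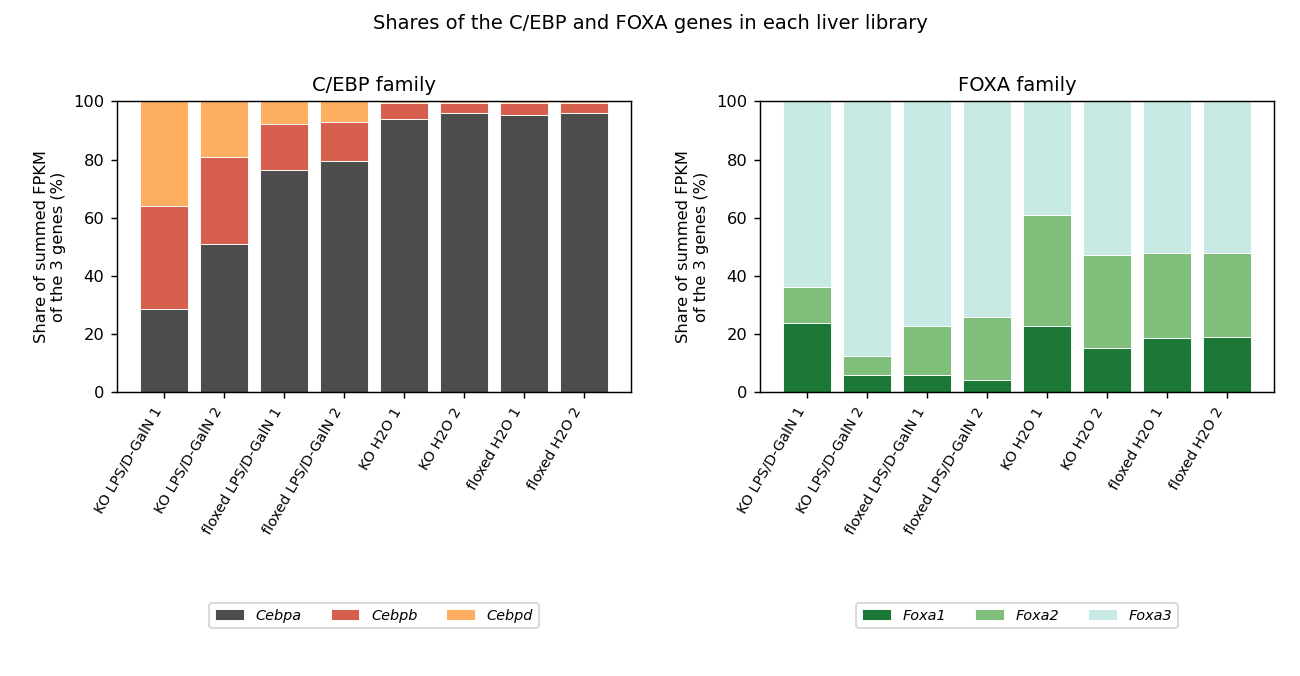
Stacked bars give the share (%) of each gene in the summed FPKM of its family, C/EBP on the left and FOXA on the right, for each of the 8 libraries. The Cebpa share is 28.7% and 50.8% in injured KO livers and 93.9% or more in all H2O livers, and the Foxa3 share is 63.8% or more in every injured liver.

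Markers of other liver cells also differed between the groups. Summed over 8 genes, neutrophil markers reached 984 and 1048 FPKM in injured KO livers and 110 and 175 FPKM in injured floxed livers, against 4.78 to 6.36 FPKM in KO H2O livers and 5.60 to 8.94 FPKM in floxed H2O livers. Retnlg, S100a8, S100a9 and Cxcr2, genes of granules and chemotaxis in neutrophils, led the difference between injured KO and injured floxed livers, and all 8 of 8 were higher in KO livers. Monocyte and macrophage markers summed to 67.9 and 53.4 FPKM in injured KO livers and 14.3 and 19.2 FPKM in injured floxed livers, against 13.6 to 15.0 FPKM in KO H2O livers and 27.3 to 28.8 FPKM in floxed H2O livers. Cebpb and Cebpd, which these cells also make, were highest in the same 2 libraries, and the part of these cells in their rise was not tested. Lymphatic endothelial markers, whose cells also make Prox1, summed to 10.8 and 6.27 FPKM in injured KO livers and 2.36 and 1.91 FPKM in injured floxed livers. In H2O livers they summed to 3.63 to 3.93 FPKM in KO and 4.67 to 5.16 FPKM in floxed livers. These values are low: 4 and 5 of the 5 genes were under 1 FPKM in injured floxed livers and 2 in each injured KO library. Only 3 of the 5 genes entered the fit, and the part of these cells in the Prox1 level was not tested. Cholangiocyte markers, whose cells also make Onecut1, Foxa1 and Foxa2, summed to 84.7 and 71.6 FPKM in injured KO livers and 75.4 and 45.7 FPKM in injured floxed livers, against 16.6 to 26.5 FPKM in KO H2O livers and 22.0 to 38.3 FPKM in floxed H2O livers. The sums were higher in the injured livers, but 3 of the 8 genes in each injured KO library, 5 in each injured floxed library and 5 or 6 in H2O libraries were under 1 FPKM. Only 5 of the 8 entered the fit. Under injury all 5 rose in KO livers, where 22.3% of all genes did. In floxed livers 3 rose, where 18.5% did, and 1 fell, where 38.8% did. The part of these cells in the Onecut1, Foxa1 and Foxa2 levels was not tested. Liver endothelial markers summed to 162 and 99.6 FPKM in injured KO livers and 21.8 and 29.5 FPKM in injured floxed livers, against 24.7 to 32.4 FPKM in all H2O livers. Kupffer cell markers summed to 321 and 172 FPKM in injured KO livers and 98.9 and 133 FPKM in injured floxed livers. In H2O livers they summed to 140 and 159 FPKM in KO and 238 and 198 FPKM in floxed livers. They were thus lower in injured than in H2O floxed livers, and the injured KO replicate 2 was below both floxed H2O libraries. Stellate cell markers lay between 21.4 and 128 FPKM over the 8 libraries. Both sums were highest in the injured KO replicate 1. Hepatocyte markers summed to 65334 and 64052 FPKM in injured KO livers and 44609 and 47756 FPKM in injured floxed livers, against 43973 to 59586 FPKM in H2O livers. Albumin makes up a large part of that sum, and gene by gene 6 of the 15 markers were higher in KO and 5 were lower when the injured groups were compared (median log2 difference 0.02, against -0.04 for all genes).

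Signals that act upstream of Cebpb and Cebpd were described from a list of 18 cytokines, receptors and pathway members. Genes said to lead a list, here and in the other lists, have the smallest p and need not have the largest change. Under injury 17 of 18 rose and 1 fell in KO livers, where 22.3% of all genes rose and 40.7% fell (median log2 change 2.49, against -0.28 for all genes), led by Socs3, a feedback inhibitor of STAT3 signalling, at 5.79, Tnf at 3.87, Nfkb1 at 2.49 and Osmr, the oncostatin M receptor, at 2.49. In floxed livers 15 rose and 1 fell, where 18.5% of all genes rose and 38.8% fell (median 1.02), led by Socs3 at 4.62, Stat3 at 2.52, Osmr at 1.70 and Tnfrsf1a at 2.28. Between injured KO and injured floxed livers 11 were higher and 2 lower, where 25.3% of all genes were higher and 27.2% lower (median 0.86, against -0.04 for all genes), led by Nfkb1 at 2.13, Lif at 1.85, Tnf at 1.64 and Il6 at 2.00. Tnf had 19.9 and 15.9 FPKM in injured KO livers and 4.44 and 5.67 FPKM in injured floxed livers, and Il6 had 8.79 and 4.95 FPKM in injured KO livers and 0.886 and 0.926 FPKM in injured floxed livers. Of these 2 groups only injured KO livers brought Il6 to the 1 FPKM of the filter on low values. Its place in this comparison thus rests on the group where it was high.

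A list of 18 acute-phase genes known as targets of C/EBP beta and delta rose under injury in both genotypes and was lower in injured KO livers, where Cebpb and Cebpd were higher. Under injury 16 of 18 rose and none fell in KO livers, where 22.3% of all genes rose (median log2 change 1.89), and 16 of 18 rose and none fell in floxed livers, where 18.5% of all genes rose (median 3.24). The leading genes were the same 4 in both genotypes: Saa3, Lcn2, Saa1 and Saa2, which encode serum amyloid A proteins and lipocalin 2. Between injured KO and injured floxed livers 0 were higher and 13 of 18 were lower in KO livers (median -1.26, against -0.04 for all genes, 27.2% of which were lower). Crp, C-reactive protein, had 130 and 132 FPKM in injured KO livers and 348 and 329 FPKM in injured floxed livers. The fibrinogen gene Fgb had 1536 and 2448 FPKM in injured KO livers and 6783 and 6548 FPKM in injured floxed livers, a log2 difference of -1.78 (adjusted p = 0.00197). Fga differed by -1.97 and the orosomucoid gene Orm1 by -1.60 in the same direction. The interaction term was lower for 8 of 18 and higher for 0, while it was higher for Cebpb and Cebpd. The part of Cebpb and Cebpd in the levels of these genes was not tested.

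Of 22 textbook HNF4A target genes 21 were tested, and they split in both directions. In KO livers 3 of 21 rose, where 22.3% of all genes did, and 9 fell, where 40.7% did (median log2 change -0.39, against -0.28 for all genes), so the counts lay near the background. They were led by Cyp7a1, which encodes the enzyme that sets the rate of bile acid production, at -4.76, the apolipoprotein gene Apom at 2.80, the sterol hydroxylase gene Cyp8b1 at -2.91 and Nr1i2, the xenobiotic receptor PXR, at -2.49. In floxed livers Hnf4a itself was higher in both injured libraries, although its change did not pass. There 5 of the targets rose, where 18.5% of all genes did, and 13 fell, where 38.8% did (median -0.80, against -0.28 for all genes). They were led by Cyp7a1 at -4.74, Cyp8b1 at -4.99, G6pc, whose enzyme releases glucose, at -6.91 and Apoa2 at -1.78. Between injured KO and injured floxed livers 9 were higher in KO livers, where 25.3% of all genes were, and 6 lower, where 27.2% were (median 0.09, against -0.04 for all genes). The apolipoprotein gene Apoa2 had 12824 and 11338 FPKM in injured KO livers and 2137 and 2599 FPKM in injured floxed livers, and Apoc3 had 2220 and 1694 FPKM in injured KO livers and 485 and 542 FPKM in injured floxed livers. Apoc3 and Apoa2 were among the 9 higher in injured KO livers, where Hnf4a was lower, and 6 of the 21 were lower there, as Hnf4a was. The part of Hnf4a in these differences was not tested.

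Other liver-enriched transcription factors and nuclear receptors were followed in a list of 24 genes. In KO livers 18 fell under injury, where 40.7% of all genes did, and 3 rose, where 22.3% did (median log2 change -1.36, against -0.28 for all genes). In floxed livers 15 fell, where 38.8% of all genes did, and 3 rose, where 18.5% did (median -1.11, against -0.28). Nr1i3, the xenobiotic receptor CAR, had 1.07 and 0.894 FPKM in injured KO livers and 0.104 and 0.269 FPKM in injured floxed livers, against 12.2 to 18.1 FPKM in H2O livers. Ppara, the fatty acid receptor, had 1.60 and 1.62 FPKM in injured KO livers and 5.42 and 6.53 FPKM in injured floxed livers, and Nr1h4, the bile acid receptor FXR, had 13.4 and 12.9 FPKM in injured KO livers and 28.5 and 39.1 FPKM in injured floxed livers. Between injured KO and injured floxed livers 12 were lower, where 27.2% of all genes were, and 4 higher, where 25.3% were (median -0.44, against -0.04), with Ppara at -1.42, Nr1h4 at -1.28 and Rxra at -1.94 among the lower ones. Among 4 other C/EBP family genes Ddit3, which encodes the stress factor CHOP, rose in both genotypes, by 1.56 in KO and 1.00 in floxed livers, and Cebpg rose by 0.62 and 0.66, while Cebpe fell by 0.77 in KO and by 2.36 in floxed livers. Of 8 fetal liver genes 4 were tested, of which 2 rose (Cd24a and Spp1) and 2 fell (Afp and Peg3) in each genotype.

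**Figure D4:**
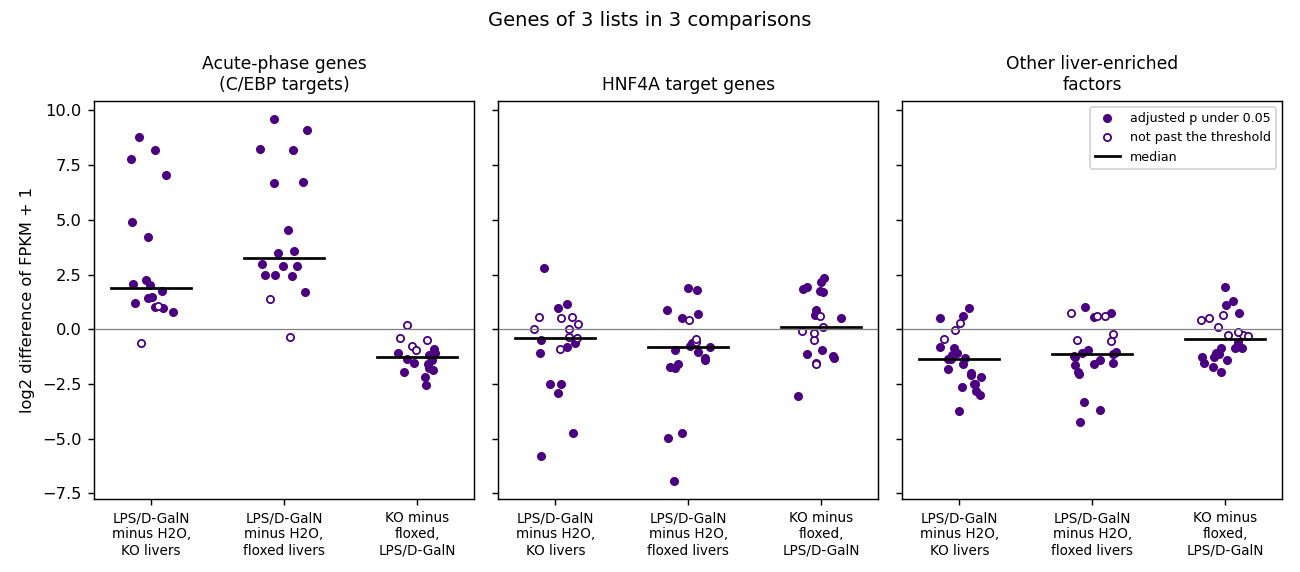
Each point is 1 gene of the acute-phase, HNF4A target or liver-enriched factor list, with its log2 difference of FPKM + 1 on the vertical axis for 3 comparisons, filled where adjusted p was under 0.05, and bars give the list's median. Acute-phase genes have medians of 1.89 and 3.24 under injury in KO and floxed livers and -1.26 between injured KO and injured floxed livers.

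The genes whose log2(FPKM + 1) followed each member most closely over the 8 libraries were ranked by Pearson's r, as a description only, since the 8 libraries form 4 groups and share the injury contrast. Cebpb was followed by Junb (0.998), an AP-1 gene, Mcl1 (0.998), a survival factor, and Acod1 (0.994), the itaconate-producing enzyme of activated macrophages. Cebpd was followed by Atp6v1b2 (0.998), Mir146 (0.996) and Acod1 (0.996). Onecut1 was followed by U2af1 (0.995), Ciao3 and Prune1 (both 0.993), Foxa2 by Twnk (0.994), Dffa and Inhbe (both 0.993), and Foxa1 by Dnajc4 (0.997), Foxo4 (0.992) and Mir1198 (0.990). Prox1 was followed by Dicer1 (0.993), Elp2 and Phkg2 (both 0.991), and Cebpa by Actr1b (0.986), Nosip and Ess2 (both 0.985). Hnf4a was followed by Gm49915 (0.987) and Slu7 (0.976). Foxa3 had no neighbour as close, with Rcc1l at 0.887, Bloc1s2 at 0.885 and Sp2 at 0.880.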

How the data were processed

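RNA from 8 mouse liver samples was sequenced on an Illumina NovaSeq instrument after preparation with the NEBNext Ultra kit, per the labels' protocols. The authors deposited 1 table of FPKM values for 55416 genes, and per the submitters' processing notes the tools and builds named are DESeq2 3.15 and GRCm39, while for the aligner, counter, annotation and strand setting nothing is given in the sources used here. FPKM divided by the value of 1 fragment gave whole numbers within 0.01 for 98.2% to 98.5% of values, from which depth was read. Levels were analysed as log2(FPKM + 1) for the 13708 genes that reached 1 FPKM in 2 or more libraries. All 8 libraries entered 1 limma fit (3.58.1, R 4.3.3) with 4 group means, a variance trend and 4 residual degrees of freedom, and p-values were adjusted by Benjamini-Hochberg over all genes tested, with a threshold of 0.05. The fit was tested on simulated data before use. The comparisons were LPS/D-GalN against H2O in each genotype and averaged, KO against floxed within each treatment, and the interaction.

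Alternatives were a pseudocount of 0.1, no filter, a filter of 5 FPKM on the mean, quantile normalisation, median centring, scaling without mitochondrial and haemoglobin genes, array weights, robust variance, only the groups compared, a replicate block, each library left out, and, chosen after seeing the data, voom on recovered fragments. The members and lists were chosen with earlier results of these data known, and no list was tested as a set. Genes named are the 9 members, Glul, Lyz2, Hnf4aos, up to 4 genes with the smallest p from each list in the comparison described, and the 3 genes with the highest correlation to each member. Albumin was added after its values were seen. Of the genes that this rule names, 2 are not reported here, nor is 1 of the promoter motifs searched. Promoter windows were read from RefSeq by gene symbol.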

Additional observations from a re-analysis of the deposited data

Results flagged for a closer look

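For 4 of the 9 genes, against 36.0% of all genes, the change under LPS/D-GalN differed between KO and floxed livers by limma's interaction test. That call is the reason they are listed. The interaction was -1.15 for Foxa2, with a log2 change under injury of -2.04 in KO livers and -0.88 in floxed livers, and over 18 alternatives it lay between -1.46 and -0.84 with an adjusted p of at most 0.0681. It was -1.12 for Prox1, with changes of -1.07 in KO livers and 0.05 in floxed livers, and between -1.47 and -0.77 with an adjusted p of at most 0.0958. It was 1.20 for Cebpb, with changes of 2.75 in KO livers and 1.55 in floxed livers, and between 0.82 and 1.42 with an adjusted p of at most 0.0718. It was 1.83 for Cebpd, with changes of 4.39 in KO livers and 2.56 in floxed livers, and between 1.31 and 2.36 with an adjusted p of at most 0.0685. Both injured KO libraries lay beyond both injured floxed libraries for each of the 4 genes, where 78.6% of all genes did not overlap between these groups. The same libraries entered the interaction.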

How the results depend on the processing

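Over 9 genes, 6 comparisons and their alternatives, 1008 values were recomputed; 941 kept their side of the threshold, 44 lost a call and 23 gained one. The sign changed in 26, all of values that were not called in either setting. Calls far from the threshold moved too: Hnf4a in KO livers, at an adjusted p of 0.464, was at 0.00386 without the injured KO replicate 2. Between injured KO and injured floxed livers, Hnf4a, Foxa1 and Cebpa lost their calls with no filter and also with only the groups compared. With no filter the interaction calls were lost, with an adjusted p of 0.0654 for Foxa2, 0.0872 for Prox1, 0.0621 for Cebpb and 0.0685 for Cebpd. Quantile normalisation ended the Cebpb interaction call (0.0545). Calls over all genes moved between settings too, so these shifts are not particular to the 9 genes. Prox1 averaged over both genotypes lost its call under median centring (0.212), quantile normalisation (0.0675) and no filter (0.0590), and without the injured floxed replicate 2 (0.0692), the KO H2O replicate 1 (0.0572), the floxed H2O replicate 1 (0.0541) or the floxed H2O replicate 2 (0.0505).

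Leaving out 1 library gave 6 to 8 members called for injury in KO livers, 4 to 6 in floxed livers, 6 to 9 averaged, 5 to 8 between injured KO and injured floxed livers, 0 in H2O livers and 1 to 7 for the interaction. Over all genes the same gave 7264 to 8303, 5559 to 8126, 8459 to 9217, 5013 to 7303, 0 to 1 and 2997 to 5019 calls.

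A mean of at least 5 FPKM, under which fewer genes are tested, gave 3519 calls over all genes in KO livers, 3686 in floxed livers, 3952 averaged, 3397 between injured KO and injured floxed livers and 2440 for the interaction, against 8639, 7861, 9481, 7192 and 4940. Between H2O livers 1 gene was called, 6 with a pseudocount of 0.1, 17 with the mean filter, 16 with no filter, 14 with voom, and 0 with a replicate block or only the groups compared. Median centring, which removes the shift of -0.28, turned 3062 higher and 5577 lower genes in KO livers into 3890 and 4185, 2537 higher and 5324 lower in floxed livers into 3759 and 3804, and 3301 higher and 6180 lower averaged into 4664 and 4549; quantile normalisation gave 3832 higher and 3719 lower in floxed livers and 4490 and 4800 averaged. The cause of these differences was not tested.

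The replicate numbers of the titles do not match the numbering in the sample descriptions. Deviations of libraries with the same title number correlated between -0.10 and 0.27 over 13708 genes. With 2 libraries a group this cannot show whether libraries were paired, and the main fit did not pair them. With a replicate block the 9 genes kept their calls in the 6 comparisons, except that Onecut1 also passed limma's interaction test (adjusted p = 0.0161). Depth limits Cebpd in H2O livers, where 43 to 56 fragments carry each value.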
